A study of Homo sapiens with 25 samples.

Results

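Complete withdrawal of histidine for 3 days was set against replete medium in Jurkat cells, an established human T-cell leukaemia line. The comparison used 8 of the 25 RNA libraries of the study: 3 libraries from cells kept with 0% of the full histidine level, and 5 libraries from cells kept in replete medium. The replete libraries, pooled by the rule of the comparison, are 3 from 50% histidine medium and 2 from 100% histidine medium. Cells kept for 3 days at 12.5% histidine (3 libraries) served as a second reference, and 25% histidine (3 libraries) is given only as a level. The remaining 11 libraries, from day 6, entered only the choice of genes to test and the estimate of the spread. Both also used the 25% libraries. The labels name no gene edit, drug or stimulus in any library, and the whole study rests on 1 cell line. Nothing in the labels says that libraries of a group came from separate cultures, so p-values cover only library-to-library spread, possibly a technical one.

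Histidine is an essential amino acid that human cells cannot make. When an amino acid runs short, uncharged tRNA activates the kinase GCN2, which slows the start of translation and favours translation of the transcription factor ATF4, while the mTORC1 kinase, a driver of protein, lipid and nucleotide synthesis, loses activity. Jurkat cells divide continuously, carry a rearranged T-cell receptor and keep many genes of immature T cells, so genes of cell division, sterol synthesis and the T lineage are all abundant in them.

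The values are counts per gene that the authors scaled for library size, called normalized counts here. The 25 libraries had sums of 18440000 to 21380000 normalized counts, and mitochondrially encoded mRNAs made up 2.23% to 5.40% of them. A gene entered the test if it reached 10 in at least 2 of the 25 libraries, which left 22994 genes. Summed markers of the T lineage were 114900 to 119500 without histidine, against 81230 to 86160 in replete medium. Among the other cell types checked, fibroblast markers summed to 4208 to 7737 without histidine and 5063 to 9511 in replete medium. Myeloid markers summed to 997.4 to 1177 without histidine and 1042 to 1265 in replete medium, and of the 10 only MPO was at 0 in all 8 libraries. Summed erythroid markers set libraries apart within the groups, at 418.9 to 4950 without histidine and 289.5 to 5052 in replete medium. HBA2, a globin, had 1649, 1991 and 149.0 normalized counts without histidine, against 1471, 1523 and 2172 at 50% and 82.8 and 64.5 at 100%, so library 3 without histidine and both 100% libraries were low. The 50% and 100% libraries differed in 0 of 22994 genes by limma (0% called), with 1075 genes at an unadjusted p under 0.05.

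Without histidine, 8948 of the 22994 genes passed the test against replete medium (limma on log2(value + 1), Benjamini-Hochberg adjusted p under 0.05), which is 38.9% of them. Of these, 4215 were higher (18.3%) and 4733 were lower (20.6%), and these shares are the background for each gene group below. The median log2 difference over all genes tested was 0.000464. Large decreases outnumbered large increases: 1896 called genes were more than 2-fold lower and 997 more than 2-fold higher, and beyond 4-fold the counts were 515 lower and 228 higher. Decreases leaned to protein-coding genes, of which 4155 of 15194 fell and 3366 rose. Among long non-coding genes the order was the other way, with 344 of 4441 lower and 506 higher.

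**Figure D1:**
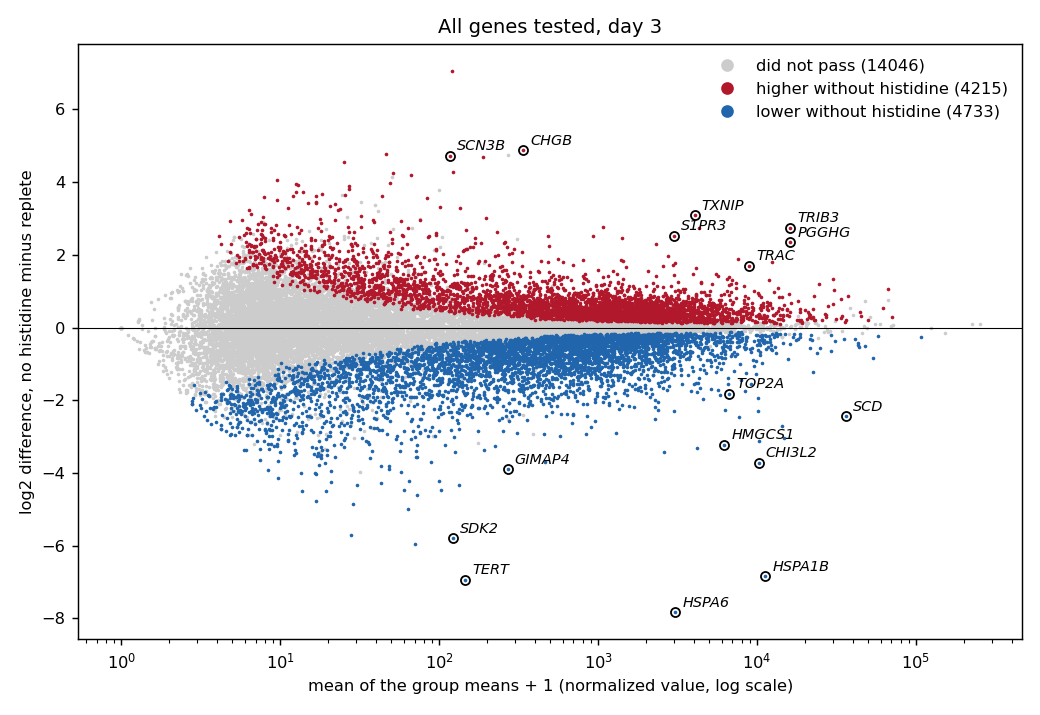
Log2 difference of each of the 22994 genes tested, no histidine minus replete medium (vertical axis), against its mean normalized count (horizontal axis, log scale), with the called genes in colour. More called genes lie below zero (4733) than above it (4215), and the named falls, such as HSPA6 and HSPA1B, reach further from zero than the named rises.

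Genes known as targets of the amino acid response did not move as a block. TRIB3 (chr20:362835-397559), a pseudokinase induced through ATF4, had 28580, 27750 and 27810 normalized counts without histidine, against 3935, 4204 and 3934 at 50% and 4607 and 4158 at 100%. All 3 libraries without histidine lay far above every replete library, a log2 difference of 2.75 ± 0.071 (SE, adjusted p = 6.43e-20 by limma). ASNS, asparagine synthetase and another target of ATF4, had 1746, 1564 and 1603 without histidine, against 2016, 1734 and 1718 at 50% and 1749 and 1742 at 100%. Its groups overlapped and it did not pass (adjusted p = 0.185), and CHAC1, a glutathione-degrading enzyme, averaged 806 ± 38.4 without histidine and 895 ± 42.1 in replete medium without passing (SD, n = 3 and 5, adjusted p = 0.0999).

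Of 30 genes listed as ATF4 targets, 16 rose and 6 fell, and the median log2 difference was 0.14. ATF4 itself averaged 20130 ± 526 normalized counts without histidine and 18160 ± 1120 in replete medium, a log2 difference of 0.15. Its call was lost after quantile normalization (adjusted p = 0.119) and with the 50% libraries alone as reference (0.074). ATF5, a relative of ATF4, averaged 34150 ± 2602 without histidine and 14760 ± 981 in replete medium. DDIT3 (CHOP), a stress transcription factor, averaged 543 ± 19.8 without histidine and 314 ± 28.7 in replete medium. CEBPG, a dimer partner of ATF4, was 1.99-fold higher, XPOT, the nuclear exporter of tRNA, 1.96-fold higher and VEGFA, an angiogenic growth factor, 1.83-fold higher. DDIT4 (REDD1), an inhibitor of mTORC1, moved the other way, with 1497, 1196 and 1444 normalized counts without histidine, against 4664, 4658 and 4356 at 50% and 3715 and 3503 at 100%. ATF3, another stress-induced factor, was 2.41-fold lower. The C/EBP-ATF element TGATGNAAN was searched on both strands before the start site. It was present in 4 of the 25 listed genes with a promoter sequence (16%), against 1.53% of all tested genes with one.

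Genes that charge, export and modify tRNA moved by small steps. Of 20 cytosolic aminoacyl-tRNA synthetases 11 rose and 6 fell, and of 17 mitochondrial ones 7 fell and at most 1 rose, since its call was lost without any one of 5 single libraries. HARS1, the cytosolic enzyme that charges histidine tRNA, had 2493, 2227 and 2282 normalized counts without histidine, against 2124, 1896 and 1954 at 50% and 1871 and 2031 at 100%. Its groups did not overlap and it passed, with a log2 difference of 0.24 ± 0.059 (SE, adjusted p = 0.00164 by limma). HARS2, the mitochondrial counterpart whose annotated end overlaps that of HARS1, averaged 879 ± 83.0 without histidine and 1015 ± 47.8 in replete medium. It did not pass (adjusted p = 0.0555 by limma), but passed without library 1 of the group without histidine (0.0498) or library 3 at 50% (0.0438). HARS2 also passed after total-sum scaling (0.038) and with a filter of at least 50 in 3 or more libraries (0.0385). Among 27 genes of tRNA modification and export 13 rose and 3 fell, with TRMT1, DUS1L and DUS3L among the rises at log2 differences of 0.49, 0.73 and 0.56.

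Of 18 genes that handle histidine itself, 5 rose and 2 fell. CNDP2, a dipeptidase that can release histidine from peptides, had 4961, 4535 and 4624 normalized counts without histidine, against 2805, 2671 and 2700 at 50% and 2453 and 2645 at 100%. SLC15A4, a lysosomal transporter of histidine and peptides, averaged 438 ± 60.5 without histidine and 337 ± 18.7 in replete medium (adjusted p = 0.0203 by limma). The call was lost without library 1 or library 3 of the group without histidine (adjusted p = 0.0629 and 0.143). It was also lost with the 100% libraries alone as reference (0.0775). A term for the library number of the labels, taken modulo 8, removed the call as well (0.189). SLC38A5, a plasma membrane carrier of histidine and glutamine, fell to 401 without histidine, against 1098 in replete medium. Histidine ammonia-lyase, HAL, which begins histidine breakdown, was at 19.9, 16.9 and 13.6 without histidine and 0 to 20.7 in replete medium and did not pass (adjusted p = 0.15), but passed with the 50% libraries alone as reference (0.0311). METTL9, which methylates histidine residues in proteins, was 1.26-fold lower. Diphthamide is a modified histidine of elongation factor 2, and of 9 genes listed for it DPH1, DPH2 and DPH3 rose, DPH1 losing its call without library 1 of the group without histidine (adjusted p = 0.0866), while EEF2K, the kinase of that factor, fell 1.65-fold. Of 22 amino acid transporters 9 rose and 6 fell (3 fell without library 1 of the group without histidine): SLC7A5, which carries large neutral amino acids and histidine, was 1.45-fold higher, and SLC38A2, a carrier of small neutral amino acids, averaged 6918 ± 569 without histidine and 6970 ± 227 in replete medium without passing.

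Lysosome and secretory pathway genes leaned upward. Of 41 autophagy and lysosome genes 19 rose and 4 fell, with a median log2 difference of 0.22. TFE3, a transcription factor of lysosomal genes, averaged 1498 ± 198 normalized counts without histidine and 722 ± 20.7 in replete medium. GABARAPL1, a protein of the autophagosome membrane, was 1.98-fold higher, CTSD, the lysosomal protease cathepsin D, 1.85-fold higher and ULK1, a kinase that starts autophagy, 1.74-fold higher. Of 25 endoplasmic reticulum chaperone and degradation genes 13 rose and 7 fell, with the falls down to 3 or 4 without library 1, 2 or 3 of the group without histidine, library 3 at 50% or library 1 at 100%. SEL1L, a subunit of the degradation ligase, and HYOU1, a chaperone of the lumen, averaged 6128 ± 722 and 13550 ± 147 without histidine, against 3109 ± 270 and 7508 ± 142 in replete medium. Of 35 mTORC1 regulators 12 rose and 10 fell, and SESN2, an inhibitor of mTORC1, was 1.58-fold higher.

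TXNIP (chr1:145992435-145996600), an alpha-arrestin that restrains glucose uptake, had 6859, 7482 and 7370 normalized counts without histidine, against 974.6, 866.9 and 774.9 at 50% and 743.4 and 903.3 at 100%. The groups were far apart, with a log2 difference of 3.09 ± 0.076 (SE, adjusted p = 8.24e-22 by limma). Its relatives ARRDC4 and ARRDC3 averaged 300 ± 31.2 and 4528 ± 261 without histidine, against 85.1 ± 18.7 and 1386 ± 140 in replete medium. These were 3 of the 6 alpha-arrestin genes, and the other 3, ARRDC1, ARRDC2 and ARRDC5, did not pass, although ARRDC1 did after quantile normalization (adjusted p = 0.00996).

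Genes of glucose use lay on the other side. Of 17 glycolytic genes 14 fell and 1 rose, and of 22 genes of glucose transport and the hypoxia response 14 fell and 3 rose. GAPDH, a central glycolytic enzyme, had 39960, 36730 and 38510 normalized counts without histidine, against 62240 to 72390 in the 5 replete libraries. ALDOC, an aldolase, fell 4.17-fold, LDHA, a lactate dehydrogenase subunit, 1.89-fold and SLC2A1, the glucose transporter GLUT1, 1.87-fold. PKM, pyruvate kinase, was the glycolytic gene that rose, by 0.34 on the log2 scale. CA9, a hypoxia-induced carbonic anhydrase, was listed at 0 in all 3 libraries without histidine and at 10.7 to 46.3 in replete medium. Of 27 genes of the tricarboxylic acid cycle 13 fell and 0 rose by limma, and none of the 13 mitochondrially encoded mRNAs passed.

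**Figure D2:**
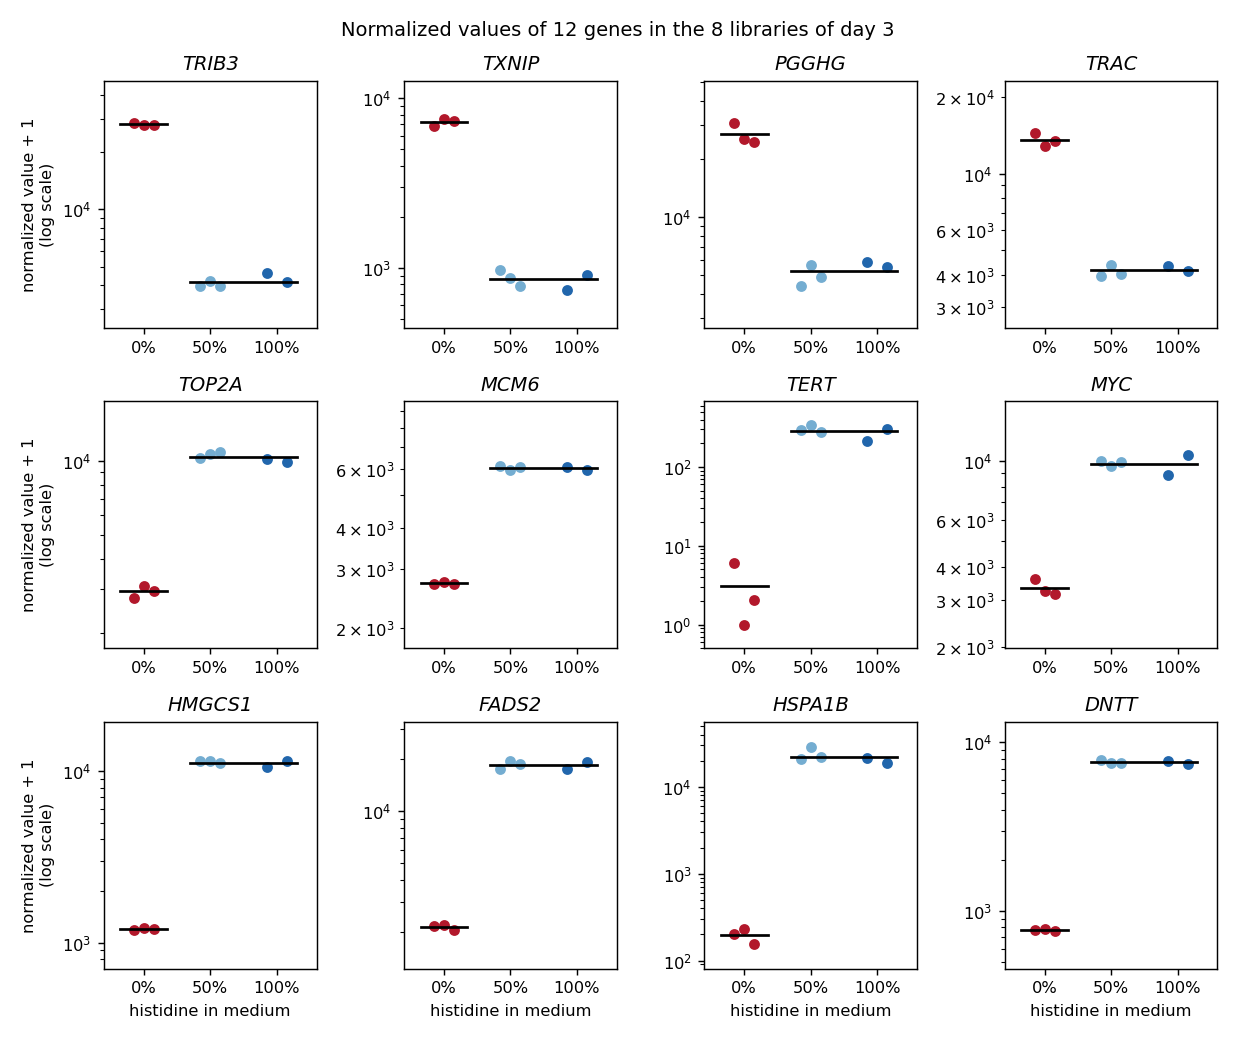
Normalized counts (log scale) plus 1 of 12 genes in each of the 8 libraries (1 point per library), with the no-histidine libraries to the left of the 50% and 100% libraries and black lines at the group means. For TRIB3, TXNIP, HMGCS1, TERT and the other 8 genes, no library of one group falls within the range of the other. The same held for 8584 of the 22994 genes tested (37.3%).

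Cell division genes were lower without histidine almost throughout. Of 37 genes of the G2 phase and mitosis 36 fell and 0 rose by limma, with a median log2 difference of -1.59, and BUB3 alone of them did not pass, at 5596 ± 220 without histidine against 5718 ± 180 in replete medium. In bulk RNA, fewer dividing cells and less of these mRNAs per cell cannot be told apart. PLK1 (chr16:23677656-23690367), the polo-like kinase of mitotic entry, had 1217, 1005 and 1012 normalized counts without histidine, against 2907, 2825 and 2956 at 50% and 2899 and 2558 at 100%. CCNB2 (chr15:59105078-59125045), a mitotic cyclin, had 529, 519.8 and 485.3 without histidine, against 1788, 1591 and 1612 at 50% and 1381 and 1511 at 100%. Both sets of libraries were well apart, with log2 differences of -1.40 ± 0.065 for PLK1 and -1.62 ± 0.077 for CCNB2 (SE, adjusted p = 4.93e-16 and 8.02e-16 by limma). AURKB, the kinase of the chromosomal passenger complex, showed the largest fall of the 37, to 233.5, 269.7 and 174.8 without histidine, against 1025 to 1306 in replete medium. Motor proteins of the spindle moved with them: of 20 kinesins 15 fell, including KIF11, KIF15 and KIF23 (3.04-fold, 3.91-fold and 3.45-fold lower), and 4 rose, namely the transport kinesins KIF3A, KIF5B, KIF21B and KIFC2. Of 18 condensin and cohesin genes 13 fell, and WAPL, which removes cohesin from DNA, was the 1 that rose.

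The promoters of the 2 mitotic genes described above show elements known from the promoters of such genes. They are printed because 15 of the 29 mitotic genes with a promoter sequence (51.7%) carried the cell cycle homology region TTTGAA. Among tested genes the share was 9.21%. The CCAAT box bound by NF-Y was present in 22 of the 29 (75.9%), against 34.3% of tested genes. Each sequence is the 150 bases before the RefSeq start site (GRCh38.p14), and capitals mark TTTGAA and CCAAT, or CCAAT on the other strand (ATTGG).
CCNB2, chr15:59104996-59105145, plus strand: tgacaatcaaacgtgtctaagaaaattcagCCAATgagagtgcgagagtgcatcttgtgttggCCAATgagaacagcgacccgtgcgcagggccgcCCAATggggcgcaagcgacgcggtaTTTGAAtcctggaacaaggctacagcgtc
PLK1, chr16:23678739-23678888, plus strand: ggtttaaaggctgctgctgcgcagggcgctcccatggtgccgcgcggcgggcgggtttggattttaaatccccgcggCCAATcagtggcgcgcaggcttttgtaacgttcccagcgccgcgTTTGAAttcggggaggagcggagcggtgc
A match is a run of letters and does not show binding.

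DNA replication genes formed a parallel group. Of 43 genes of the G1/S transition and replication 41 fell and 0 rose by limma, with a median log2 difference of -1.09. MCM6, a subunit of the replicative helicase, had 2710, 2753 and 2716 normalized counts without histidine, against 6131, 5943 and 6092 at 50% and 6098 and 5980 at 100%, so its libraries spread very little within each group. ORC1, of the origin recognition complex, and CDT1, which loads the helicase, were lower by 2.08 and 2.00 on the log2 scale. The E2F element TTTGGCGC was present in 5 of 38 promoters of this list (13.2%), against 0.787% of tested genes, and MCM6 is shown as one of the 5, with capitals for TTTGGCGC and for CCAAT or its reverse (ATTGG).
MCM6, chr2:135876444-135876593, minus strand: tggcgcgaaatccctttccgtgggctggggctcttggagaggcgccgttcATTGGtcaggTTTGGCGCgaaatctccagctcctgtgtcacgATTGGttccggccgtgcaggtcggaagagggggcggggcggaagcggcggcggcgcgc
Of 19 pyrimidine and deoxynucleotide genes 9 fell and 3 rose, and TYMS, thymidylate synthase, averaged 1759 ± 194 without histidine and 5881 ± 379 in replete medium. RRM2, the inducible subunit of ribonucleotide reductase, spread from 173 to 1167 within the group without histidine and did not pass (adjusted p = 0.191). Without library 3, the high one, the log2 difference was -2.06 (adjusted p = 0.0187).

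Most genes of recombination repair and nuclear transport were also lower. Of 26 Fanconi anaemia and homologous recombination genes 24 fell and 0 rose by limma, among them BRCA1, which acts at strand breaks (2.57-fold lower). Of 34 nuclear pore and transport genes 26 fell and 0 rose by limma, NUP210, a membrane nucleoporin, most clearly, at 5734 ± 404 without histidine and 14000 ± 1382 in replete medium. Of 18 variant histones and histone chaperones 6 rose and 10 fell. Histone chaperones of replication fell, CHAF1B by 1.70 and CHAF1A by 1.31 on the log2 scale, and H2AX, a variant that marks breaks, by 1.43. H3-3B, which encodes the replication-independent histone H3.3, rose, averaging 18440 ± 1075 without histidine and 10370 ± 504 in replete medium.

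Inhibitors of the cycle did not rise as a group. CDKN1A (p21) averaged 145 ± 11.2 normalized counts without histidine and 311 ± 21.5 in replete medium, and CDKN1B (p27) 2792 ± 84.3 without histidine and 3492 ± 174 in replete medium, so both fell. CDKN2D (p19) rose by 0.86 on the log2 scale. Of 23 genes listed as cyclins, kinases, inhibitors and related factors 15 fell and 3 rose, the other 2 rises being CDK6 and the transcription factor E2F4. MYC, the transcription factor that drives growth and is abundant in Jurkat cells, had 3593, 3264 and 3155 without histidine, against 10040, 9605 and 9903 at 50% and 8845 and 10510 at 100%. Its relative MYCN rose to 299.8 without histidine, against 118.2 in replete medium. TERT (chr5:1253147-1295069), the catalytic subunit of telomerase, was at 5.113, 0 and 1.044 without histidine, against 294.7, 337.8 and 278.7 at 50% and 213.1 and 302.7 at 100%. Of the other 15 telomere genes listed, RTEL1, a helicase, and ACD, of shelterin, fell by 0.72 and 0.45 on the log2 scale, TERF2IP and TINF2, also of shelterin, rose by 0.66 and 0.35, and 11 did not pass.

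**Figure D3:**
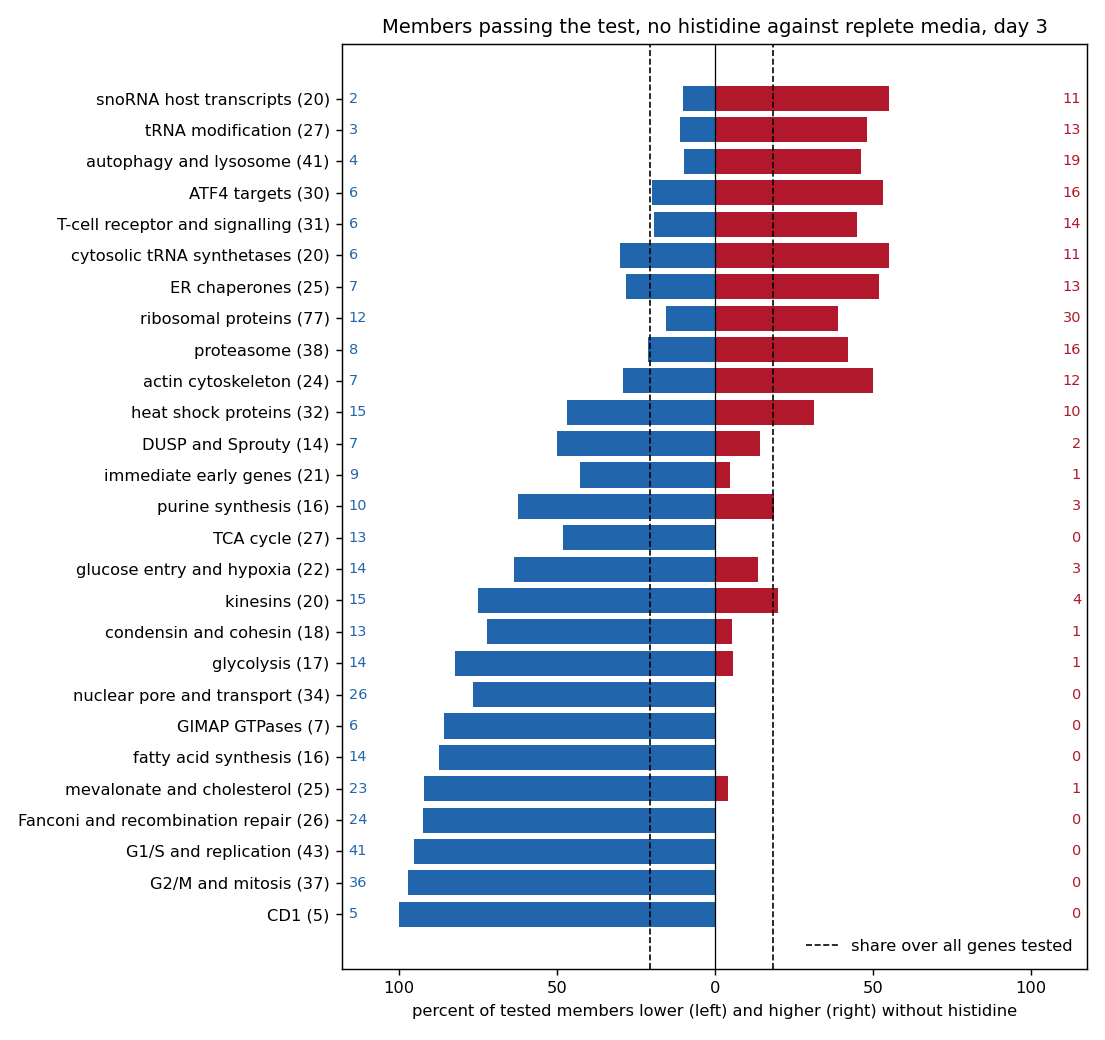
Share of the tested genes of each list that were higher (to the right) and lower (to the left) without histidine than in replete medium, in percent, with the shares over all genes (18.3% and 20.6%) as dashed lines and the counts at the margins. The mitosis, replication and sterol lists reach far beyond the lower line, and the lists of snoRNA hosts and tRNA modification genes beyond the higher line.

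The mRNAs of sterol synthesis genes fell along nearly the whole pathway. Of 25 genes of cholesterol synthesis and uptake 23 fell, with a median log2 difference of -1.80, and PMVK, a kinase of the mevalonate steps, was the 1 that rose. HMGCS1 (chr5:43289395-43313512), which makes the precursor of mevalonate, had 1181, 1217 and 1192 normalized counts without histidine, against 11400, 11480 and 11140 at 50% and 10530 and 11360 at 100%. The groups lay far apart, with a log2 difference of -3.22 ± 0.062 (SE, adjusted p = 2.40e-24 by limma) and almost no spread within either. SQLE, which makes squalene epoxide, was 4.87-fold lower, and INSIG1, the sterol-responsive retention factor of the pathway, 5.49-fold lower. The 2 transcription factors of the pathway, SREBF2 and SREBF1, were 3.30-fold and 2.09-fold lower.

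The sterol element TCACNCCAC was found in 1 of the 18 sterol genes with a promoter sequence (5.56%), against 0.853% of tested genes, while CCAAT, a known partner element of sterol-responsive promoters, was found in 15 of the 18 (83.3%). HMGCS1 is shown because it has the smallest p of the list, with its CCAAT box (ATTGG on this strand) in capitals.
HMGCS1, chr5:43313413-43313562, minus strand: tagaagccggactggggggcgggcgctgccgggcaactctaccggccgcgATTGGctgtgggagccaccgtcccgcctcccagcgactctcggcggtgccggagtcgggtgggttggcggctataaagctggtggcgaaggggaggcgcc

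Genes of fatty acid synthesis moved with those of sterol synthesis, 14 of 16 lower and 0 higher by limma (median log2 difference -0.97). The desaturases led. FADS2, the delta-6 desaturase, had 2160, 2191 and 2063 normalized counts without histidine, against 17560, 19580 and 18810 at 50% and 17600 and 19300 at 100%. SCD, the stearoyl-CoA desaturase and one of the most abundant mRNAs of the replete cells, had 10600, 11120 and 12170 without histidine, against 56420, 65120 and 64670 at 50% and 59830 and 60760 at 100%. FADS1, the delta-5 desaturase, was 3.92-fold lower, and because its annotated span lies within that of FADS2 the reads of the pair may not be fully separated. FASN, fatty acid synthase, was 2.95-fold lower.

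These desaturases hold their iron through clusters of histidine residues and are rich in histidine codons. FADS2 has 30 histidine codons among 444 (6.76%) and SCD 16 among 359 (4.46%), against a median of 2.45% over 14982 coding sequences. A stretch of 50 codons of each is printed to show that density, with the histidine codons CAC and CAT in capitals.
FADS2, codons 179 to 228: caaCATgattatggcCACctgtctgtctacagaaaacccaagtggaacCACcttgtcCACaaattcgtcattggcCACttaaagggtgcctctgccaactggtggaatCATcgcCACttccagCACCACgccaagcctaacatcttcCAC
SCD, codons 141 to 190: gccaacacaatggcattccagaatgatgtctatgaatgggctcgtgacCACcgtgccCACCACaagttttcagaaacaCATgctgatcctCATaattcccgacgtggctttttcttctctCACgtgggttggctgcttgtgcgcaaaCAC
The FADS2 stretch holds 10 histidine codons and the SCD stretch 7.

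The histidine share of each gene's codons was averaged over genes, weighted by normalized counts and without mitochondrially encoded genes. This mean share was 2.33% ± 0.00287 without histidine and 2.35% ± 0.00586 in replete medium (SD, n = 3 and 5). The groups did not overlap (2.327% to 2.332% against 2.346% to 2.361%), a difference of -0.0246 percentage points, with an exact two-sided permutation p of 0.0357, the smallest that 3 against 5 libraries can give. Adjusted over the 20 amino acids, p was 0.0893 and did not pass. In relative terms histidine had the largest decrease of the 20, -1.05%, and proline the largest increase, 1.01%. Isoleucine, phenylalanine, aspartate, tyrosine, tryptophan, methionine and proline had the same exact permutation p of 0.0357. In percentage points isoleucine (-0.0346), aspartate (-0.0328), asparagine (-0.0307) and phenylalanine (-0.027) decreased more than histidine. SCD contributed -0.00542 and FADS2 -0.00372 percentage points to the histidine difference, and without SCD, FADS1 and FADS2 it was -0.0144 with the same exact p. ATF5 and SLC7A5, poor in histidine codons and higher without histidine, contributed -0.00197 and -0.00179. FTH1 (5.46% histidine codons) and TRIB3 (3.90%) also rose and contributed in the other direction, 0.00345 and 0.00188. The 12.5% libraries, at 2.301% to 2.308%, lay below those without any histidine, so the share did not follow the histidine supply in order. Among genes with coding sequences, the 3746 genes with at most 1.82% histidine codons had 26.4% higher and 24.8% lower calls, and the 3746 with 3.16% or more had 19.0% higher and 28.5% lower. Between them the share of lower calls was flat, at 28.4% and 28.9% in the groups of 3745 genes. The median histidine share was 2.45% for genes more than 2-fold higher, 2.45% for those more than 2-fold lower and 2.45% over all genes with coding sequences. For called genes of any size of change it was 2.31% for the 3334 higher and 2.49% for the 4144 lower.

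**Figure D4:**
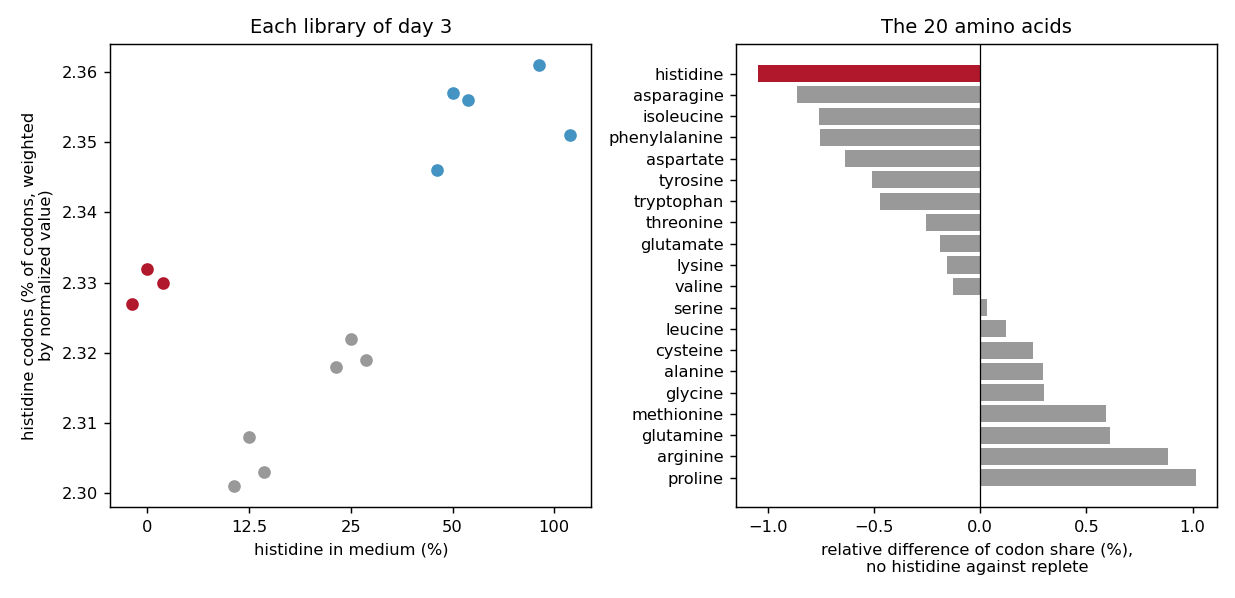
Left, share of histidine codons (percent, mean over genes weighted by normalized counts) in each day 3 library by histidine level. Right, relative difference in the codon share of each of the 20 amino acids, no histidine against replete medium, in percent. Histidine lies at the low end (-1.05%) and proline at the high end (1.01%), and no amino acid passed after adjustment over the 20.

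Heat shock proteins and their partners moved in both directions, and the largest falls were in stress-inducible genes. HSPA6 (chr1:161524540-161526910), a strictly stress-induced HSP70, was at 45.14, 42.43 and 8.45 normalized counts without histidine, against 6030, 7337 and 6202 at 50% and 5505 and 5342 at 100%. HSPA1B (chr6:31827735-31830255), the main inducible HSP70, had 198.7, 230.4 and 155.3 without histidine, against 20840, 28720 and 22220 at 50% and 21220 and 18660 at 100%. Both were among the largest falls by the naming rule, with log2 differences of -7.83 ± 0.504 and -6.84 ± 0.277 (SE, adjusted p = 1.70e-10 and 2.08e-13 by limma). HSPA1A, a nearly identical copy of HSPA1B, fell 12.9-fold, and reads of the pair cannot be fully separated. DNAJB1, the inducible HSP40, had 3275, 3201 and 3083 without histidine, against 23920 to 30650 in replete medium. BAG3 and HSPB1, both also induced by heat shock factor, were 2.56-fold and 2.31-fold lower. HSPA8, the constitutive HSP70, averaged 26340 ± 570 without histidine and 18510 ± 1077 in replete medium, and STIP1, which links HSP70 and HSP90, was 1.40-fold higher. HSP90AB1, the constitutive cytosolic HSP90, fell, averaging 37120 ± 1256 without histidine and 46030 ± 2086 in replete medium. Over the 32 genes of the list 10 rose and 15 fell, with a median of -0.25 on the log2 scale.

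The heat shock element was found in 4 of 29 promoters of this list (13.8%), against 0.324% of tested genes. HSPA6 is shown as the gene with the largest fall, with the element, read on the other strand, in capitals.
HSPA6, chr1:161524390-161524539, plus strand: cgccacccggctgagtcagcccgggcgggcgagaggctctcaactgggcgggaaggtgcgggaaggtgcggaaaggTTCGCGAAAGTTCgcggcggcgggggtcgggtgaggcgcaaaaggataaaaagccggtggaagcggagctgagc

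Of the 7 chains of the T-cell receptor complex 5 rose: TRAC, TRBC2, CD3D, CD3E and CD3G. TRAC, the constant region of the alpha chain, had 14460, 12900 and 13500 normalized counts without histidine, against 3964, 4375 and 4031 at 50% and 4322 and 4165 at 100%. TRBC2, a constant region of the beta chain, averaged 6277 ± 334 without histidine and 2018 ± 47.4 in replete medium, whereas its near-identical neighbour TRBC1 averaged 11350 ± 560 without histidine and 11610 ± 526 in replete medium and did not pass. Reads of the pair may be divided unevenly. CD3E, a signalling chain of the complex, had 30630, 28340 and 29540 without histidine, against 15440 to 16390 in replete medium. CD247, the zeta chain of the complex, averaged 2520 ± 60.9 without histidine and 2515 ± 175 in replete medium and did not pass. FYN, a proximal kinase, was 2.35-fold higher and LCK, its relative, 1.43-fold higher. Of 31 genes of receptor signalling 14 rose and 6 fell, CD5, a damping receptor set by signal strength, being 2.54-fold lower and CD2, an adhesion receptor, 1.31-fold lower.

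Of 11 genes of receptor gene recombination 5 fell, and the other 6 did not pass. DNTT, the terminal transferase that adds bases at receptor junctions, had 769.2, 779.2 and 766.2 normalized counts without histidine, against 7855, 7593 and 7595 at 50% and 7747 and 7435 at 100%. The spread within each group was very small beside the log2 difference of -3.31 ± 0.044 (SE), whose adjusted p of 6.10e-28 by limma was the smallest of the 11 recombination genes. RAG2, of the recombinase, was lower by 1.47 on the log2 scale, and RAG1, its partner, averaged 7571 ± 826 without histidine and 8505 ± 635 in replete medium without passing. PTCRA, the pre-T-cell receptor chain of immature T cells, averaged 52.4 ± 19.2 without histidine and 65.7 ± 21.3 in replete medium and did not pass either. All 5 CD1 genes, which present lipids and mark cortical thymocytes, fell, most of all CD1D, to 760.2, 499.5 and 569.8 without histidine, against 2679 to 2848 in replete medium. Of 7 GIMAP genes, small GTPases of lymphocyte survival that lie side by side on chromosome 7, 6 fell. GIMAP4 was at 37.8, 20.1 and 45.3 without histidine, against 384.7 to 578.6 in replete medium, and GIMAP8, at 8.94 without histidine and 10.1 in replete medium on average, did not pass. TAL1, the leukaemia-driving factor of Jurkat cells, was 1.38-fold higher, and MYB, which acts with it, 1.84-fold lower. NOTCH1, NOTCH2, NOTCH3, RBPJ, DTX1 and HES1 were the 6 of 14 Notch pathway genes that fell, and 0 rose by limma.

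Surface and signalling genes with large changes included several of homing and immediate early response. ITGA4, the alpha-4 integrin, had 3400, 3378 and 3459 normalized counts without histidine, against 15610 to 17670 in replete medium, while ITGA6, the alpha-6 integrin, rose by 0.90 on the log2 scale. CCR8, a chemokine receptor, was at 10.1, 10.6 and 14.5 without histidine and 209.9 to 287.5 in replete medium. Of 21 immediate early genes 9 fell, including EGR1, a zinc finger factor, at 825 ± 152 without histidine and 3946 ± 492 in replete medium, and JUN, of the AP-1 complex, at 213 ± 83.3 without histidine and 1056 ± 193 in replete medium. EGR3, a relative of EGR1, was the 1 that rose, to 260.8, 335.9 and 246.4 without histidine, against 27.1 to 80.2 in replete medium. Among the most abundant genes that fell were CHI3L2, a secreted chitinase-like protein, at 1439 ± 68.2 without histidine and 19040 ± 1693 in replete medium, and ALDH1A2, an enzyme of retinoic acid synthesis, at 3814 ± 196 without histidine and 24940 ± 1275 in replete medium.

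Summed markers of other cell types were small beside those of the T lineage, with the highest sums for the fibroblast and erythroid markers given above. Summed B-cell markers were 732.9 to 875.0 without histidine and 347.7 to 432.1 in replete medium, with CD79A at 634 ± 28.5 without histidine and 220 ± 24.3 in replete medium, while CD79B fell. Summed epithelial markers were 295.0 to 331.1 without histidine and 442.9 to 547.0 in replete medium, with KRT18 and MUC1 lower. The sums overlapped for myeloid markers, at 997.4 to 1177 without histidine and 1042 to 1265 in replete medium.

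Genes of the translation machinery moved in both directions, and hosts of small nucleolar RNAs leaned upward. Of 20 such host genes 11 rose and 2 fell, with a median log2 difference of 0.80. Their spliced transcripts are known to be degraded during translation. SNHG32 had 12230, 11670 and 12120 normalized counts without histidine, against 3374, 3332 and 3184 at 50% and 3053 and 3343 at 100%. SNHG12 averaged 399 ± 49.2 without histidine and 64.1 ± 12.8 in replete medium, and GAS5 9659 ± 271 without histidine and 3700 ± 310 in replete medium. Of 77 ribosomal protein genes 30 rose and 12 fell, with a median log2 difference of 0.09, RPS12 at 0.69 and RPL7A at -0.57 among those with the smallest p. Of 33 ribosome biogenesis genes 9 rose and 6 fell, and of 34 initiation factors 16 rose and 9 fell. NOP56, of the small nucleolar ribonucleoproteins, was 1.96-fold higher and POLR1E, a subunit of RNA polymerase I, 1.80-fold lower. EIF4G2, a relative of the initiation scaffold, was 1.73-fold higher and EIF4B, a helicase cofactor, 1.62-fold lower.

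Genes that rose most by the naming rule were mostly genes with low levels in replete cells. CHGB, a secretory granule protein of neuroendocrine cells, had 709.5, 571.0 and 666.4 normalized counts without histidine, against 19.9, 24.2 and 15.6 at 50% and 14.3 and 38.0 at 100%. KLHDC7B, a kelch-domain protein, averaged 358.5 ± 14.8 without histidine and 14.5 ± 7.93 in replete medium. SCN3B, a sodium channel subunit, was at 173.4, 272.6 and 190.5 without histidine and at 0 to 38.7 in replete medium, and it did not pass when only the 8 libraries were fitted (adjusted p = 0.0595). CALB2 (calretinin), a calcium-binding protein of neurons, had 1847, 1997 and 1790 without histidine, against 241.9 to 292.7 in replete medium. RETN (resistin), ACER1, a ceramidase, PDE11A, a phosphodiesterase, and KIF26B, a kinesin relative, were higher by 3.31, 2.74, 2.70 and 3.30 on the log2 scale. Of genes with means of at least 5000, S1PR3, a sphingosine phosphate receptor, rose to 5132 ± 207 without histidine, against 889 ± 73.3 in replete medium, and SHISA2, of the endoplasmic reticulum, to 19460 ± 999 without histidine, against 5534 ± 323 in replete medium. The largest falls besides those already described were TTLL7, SDK2, COBL, CGNL1, RASA4B, GRIK4 and COL9A2, each at or below 34.02 normalized counts in every library without histidine.

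PGGHG (chr11:289135-296107), which trims glucose from collagen, had 30780, 25530 and 24450 normalized counts without histidine, against 4409, 5676 and 4915 at 50% and 5887 and 5516 at 100%. The gene that precedes it by 147 bases on the same strand, the unnamed ENSG00000255026 (chr11:287305-288987), averaged 7463 ± 1205 without histidine and 1130 ± 185 in replete medium. The gene that follows, IFITM5 (chr11:298200-299526), a bone-restricted member of its family on the opposite strand, was at 102.1, 121.4 and 149.7 without histidine and 3.16 to 11.6 in replete medium. All 3 of these genes rose, by 2.35, 2.73 and 4.20 on the log2 scale. NLRP6, before them, rose by 1.22. The next members of the IFITM family did not move with them, IFITM2 not passing at 180 ± 42.7 without histidine against 182 ± 40.9 in replete medium, and IFITM1, whose annotated span overlaps that of IFITM2, falling by 0.69 on the log2 scale. The level of PGGHG at 12.5% histidine was 6877 ± 261, so most of its rise lay between 12.5% and 0%, where the log2 difference was 1.96 ± 0.127 (SE, adjusted p = 1.43e-10 by limma).

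Full withdrawal was also set against 12.5% histidine, the lowest level supplied. Without histidine, 4847 of 22994 genes (21.1%) passed against 12.5%, 1960 higher (8.52%) and 2887 lower (12.6%). With a term for the library number of the labels, taken modulo 8, the counts were 1146 higher and 2156 lower. On day 3 these numbers run in order of histidine level, so the term cannot separate library order from level. All 37 mitosis genes fell against 12.5%, with a median log2 difference of -1.93, as did 41 of 43 replication genes. At 12.5% the mean of 31 of the 37 mitosis genes lay above that of the replete libraries, MKI67, the proliferation marker, for example averaging 4237 at 0%, 17050 at 12.5% and 11510 in replete medium. Sterol genes gave a different course: of 25, 6 rose and 5 fell between 12.5% and 0%, and 1 of 25 had a 12.5% mean above replete medium. HMGCS1 averaged 1197 at 0%, 1183 at 12.5%, 1261 at 25% and 11180 in replete medium. HSPA1B shared that course, at 195, 252, 267 and 22330, and so did TRIB3 in the upward direction, at 28040, 26610, 20930 and 4168. The list medians per library, relative to the mean of the replete libraries on the log2 scale, were -1.60 to -1.52 for mitosis genes at 0%, 0.30 to 0.37 at 12.5% and -0.18 to -0.06 at 25%, while for sterol genes they were -1.88 to -1.71, -1.83 to -1.75 and -1.74 to -1.63 at the same levels.

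**Figure D5:**
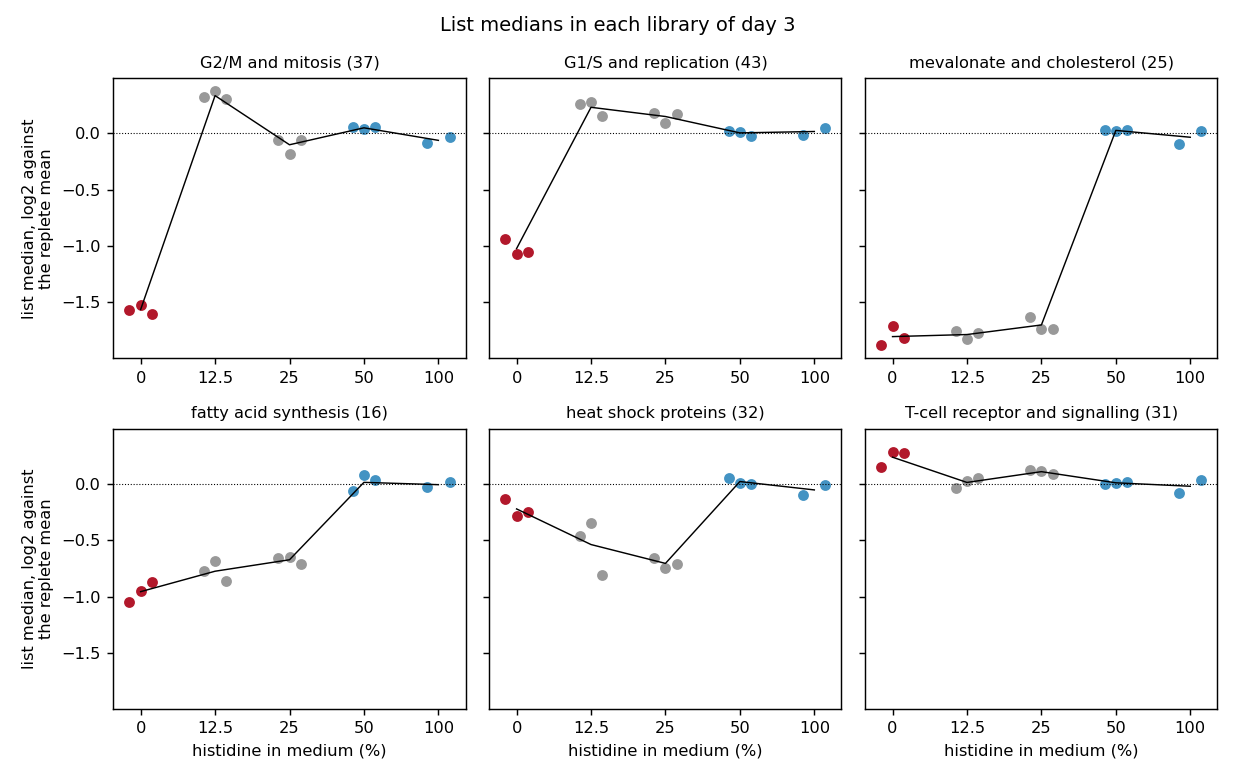
Median log2 level of 6 gene lists in each day 3 library (points; lines join the means) relative to the mean of the replete libraries, against the histidine level of the medium (0%, 12.5%, 25%, 50% and 100%). Mitosis and replication genes lie far below zero at 0% and near or above it at 12.5% and 25%, whereas sterol and fatty acid genes are low at 0%, 12.5% and 25%.

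Some genes were highest at a partial supply. TXNIP averaged 7237 at 0%, 11590 at 12.5%, 8954 at 25% and 853 in replete medium. SNHG12 averaged 399, 973, 983 and 64.1 at the same levels. Both were lower at 0% than at 12.5% by the test (log2 differences -0.68 for TXNIP and -1.29 for SNHG12) and higher at 0% than in replete medium. Against 12.5%, 52 of 77 ribosomal protein genes rose and 0 fell by limma, and 18 of 31 receptor signalling genes rose and 3 fell. HSPA8 was at 26340 at 0%, 9927 at 12.5% and 4524 at 25%, against 18510 in replete medium, so that its level without histidine exceeded both partial supplies.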

How the data were processed

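Strand-specific libraries were made by a service provider from 1 µg of total RNA (RNeasy Mini extraction), per the labels' protocols. FastQC 0.11.9, kallisto 0.50.1 and DESeq2 1.44.0 are named in the submitters' processing notes, with the build GRCh38, while the sources used here give neither the annotation release nor whether strand was used. What the authors deposited is a normalized signal: counts per gene divided by a library's size factor. They are not whole numbers, and 55.5% to 75.5% of the low values in a library were whole multiples of 1 read (tolerance 0.05, up to 20 reads), so the reads were not recovered, the depth is unknown and no count test was run.

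Genes that reached 10 in 2 or more of 25 libraries were tested with limma 3.58.1 in R 4.3.3 on log2(value + 1), with an intensity trend and robust moderation, a mean per group in all 25 libraries, and Benjamini-Hochberg adjustment over all genes tested. Differences are on that scale, which understates the change of low genes. The 50% and 100% libraries of day 3 formed 1 group, and a fit that kept them apart gave the comparison between them. Codon shares were computed in Python 3.11.15 from GENCODE 29 coding sequences and compared by an exact two-sided permutation test. Gene positions are those of GENCODE 29 on GRCh38 (33590 of 36755 gene names in the table matched), and promoters are from RefSeq on GRCh38.p14. Motifs were counted on both strands of a stretch before each start site that was longer than the 150 bases printed. CCAAT can lie next to other motifs. The limma step was tested on simulated data.

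Named genes are the 12 largest rises and falls among called genes without overlap between the groups and with a mean of at least 100 in 1 group, the 8 largest with a mean of at least 5000, the 6 called members of each list with the smallest p, members that moved against their list, and a fixed set of stress, growth and sterol genes. Other genes named were chosen after their values were seen. The comparison, the rule and the lists were chosen with earlier results of these data known. No gene list was tested as a set. No column of per-sample values was left unused. Values of some genes that the rule names are not reported here.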

Additional observations from a re-analysis of the deposited data

Results flagged for a closer look

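Among 184 named genes, 8 had 1 replete library standing apart from the other 4 beyond Dixon's critical value of 0.71 for 5 samples. That value is set to flag about 1 in 20 groups by chance. The 184 genes share the same 5 libraries, and the cause of the flags was not tested. In 5 of the 8 genes the library that stood apart was library 1 at 50% histidine. ASNS stood at 2016 normalized counts there, against 1718 to 1749 in the other replete libraries, DPH3 at 671.4 against 528.9 to 564.1, FTH1 at 29890 against 24970 to 26140, and TERF2IP at 3468 against 3316 to 3360. RBPJ was low in it, at 1756 against 1818 to 1827. In the other 3 it was library 1 at 100% histidine: BUB3 at 5408 against 5745 to 5874, CHI3L2 at 16110 against 19090 to 20270, and TFE3 at 757.9 against 705.3 to 718.2. ASNS and BUB3 did not pass the test against replete medium. For the other 6, the library that stood apart lay on the replete side of every library without histidine.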

How the results depend on the processing

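The count of called genes against replete medium stayed between 7123 and 8949 over all alternatives, lowest with the 100% libraries alone as reference. The share of higher calls was 47.1% as reported, 51.7% after quantile normalization and 45.0% after total-sum scaling. Of 3859 values of the 184 named genes, 0 turned direction with a call, 10 lost and 7 gained their call. With quantile normalization ATF4 and ACTB no longer passed (adjusted p = 0.119 and 0.565), ATF4 and DPH1 did not with 50% alone as reference (0.074 and 0.0844), where HAL did (0.0311), and SCN3B did not with only the 8 libraries compared (0.0595). Against 12.5% histidine, a term for the library number of the labels, taken modulo 8, gave 1146 higher and 2156 lower genes, in place of 1960 and 2887. Between 50% and 100%, leaving out single libraries gave 0 to 5 called genes, 0 to 5 higher and 0 to 3 lower: 5 higher without library 1 at 100% and 3 lower without library 1 at 50%. The histidine share of codons differed by -0.0267 to -0.0228 percentage points without single libraries, where the exact p was the smallest that design allows (0.0571 or 0.0952). The causes of these changes were not tested. Replicate numbers did not pair the libraries: deviations of same-numbered libraries correlated at -0.0389 to 0.0295. A fit with the replicate number as a block called 8934 genes against replete medium, 4772 against 12.5% and 0 between 50% and 100%. The depth behind the normalized counts is unknown, so no floor can be set for genes with libraries at 0, such as TERT and TTLL7 without histidine.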

Other observations

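Several gene groups outside those described above also divided. Of 24 actin cytoskeleton genes 12 rose and 7 fell: MSN (moesin), which links actin to the membrane, averaged 41090 ± 1313 normalized counts without histidine and 20050 ± 927 in replete medium, while ACTB, beta-actin, fell by 0.27 on the log2 scale, a call that was lost after quantile normalization (adjusted p = 0.565). Of 16 tubulin genes and cofactors 9 fell, and TUBA1B, the main alpha-tubulin, averaged 13590 ± 556 without histidine and 31660 ± 2388 in replete medium. Of 29 apoptosis genes 11 rose and 8 fell. BMF, a BH3-only protein tied to the cytoskeleton, rose by 1.08 on the log2 scale. Of 30 chromatin modifiers 9 rose and 8 fell, KDM6B, a demethylase of histone H3, being 2.68-fold higher and DNMT3B, a de novo DNA methyltransferase, 3.98-fold lower.

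Of 44 interferon and antigen presentation genes 9 rose and 12 fell. IRF7, a regulator of interferon genes, averaged 442 ± 72.5 normalized counts without histidine and 110 ± 28.4 in replete medium. PSMB9, a subunit of the immunoproteasome, fell by 0.99 on the log2 scale. Of 12 polyamine genes 6 rose and 3 fell, with ODC1, the first enzyme of their synthesis, 1.56-fold higher and SAT1, which acetylates them for export, 2.95-fold lower. TFRC, the transferrin receptor, fell by 0.50 and FTH1, the iron store ferritin heavy chain, rose by 0.87 on the log2 scale.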
